A study of Rattus norvegicus with 3 samples.

Results

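The 9 genes described here code for structural proteins of myelin or for enzymes that make its lipids: Mbp, Mag, Mog, Cnp, Mobp, Cldn11, Opalin, Ugt8 and Fa2h. They were taken as a fixed list, and every peak of oligodendrocyte progenitor cells (OPC) whose nearest gene was 1 of them was collected. This gave 12 of 9084 annotated OPC peaks, at 7 of the 9 genes. The peaks come from chromatin immunoprecipitation and sequencing (ChIP-seq) with an antibody to Seh1, a nucleoporin of the nuclear pore scaffold. The cells were cultured from forebrain of Sprague Dawley rats at postnatal day 1 to 2, with 1 Seh1 library of OPC grown with PDGF-AA, CNTF, bFGF and NT3. A second Seh1 library was of immature oligodendrocytes (iOL), made by 1 day with 60 nM triiodothyronine (T3) after PDGF-AA, bFGF and NT3 were removed, and an IgG library of iOL was not analysed here. No genetic change is given for any of the cells, and the peak lists hold no expression values by which the stage of a culture could be checked.

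Myelin is the layered membrane that oligodendrocytes wrap around axons. Its genes are low in progenitors and are switched on together as the cells differentiate, which T3 promotes. Compaction of the membrane depends on basic proteins such as Mbp on its cytoplasmic faces, while adhesion proteins join it to the axon and galactolipids make up much of the membrane itself.

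Seh1 peaks of OPC lay around most of these genes. Their nearest peaks were a median of 14.1 kb from the transcription start sites (TSS), where the median over all coding genes with a peak was 17.9 kb. None of the 12 peaks overlapped an iOL peak, and 1.73% of all annotated OPC peaks did, so 0 of 12 is near the background. Of the 9 genes 7 had an OPC peak as nearest gene, 77.8%, where 26.7% of 20978 named protein-coding genes had one (24.2% of 23154 when genes with provisional names were counted). Genes that the authors' peak annotation lacked could not have one, which would lower the background shares, and their number is unknown. Mbp and Cldn11 had 3 peaks each, Fa2h had 2, and Mag, Mobp, Opalin and Ugt8 had 1 each. Mog and Cnp had none. Having 3 or more peaks was seen in 3.42% of coding genes. The list was chosen with results of these peaks known and each stage had 1 library, so these shares are descriptions of the peak list and carry no replicate error.

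Within 50 kb of a TSS 6 of the 9 genes kept a peak (background 19.5%), Mobp being the gene lost. Within 10 kb only Opalin did (1 of 9, background 9.84%).

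**Figure D1:**
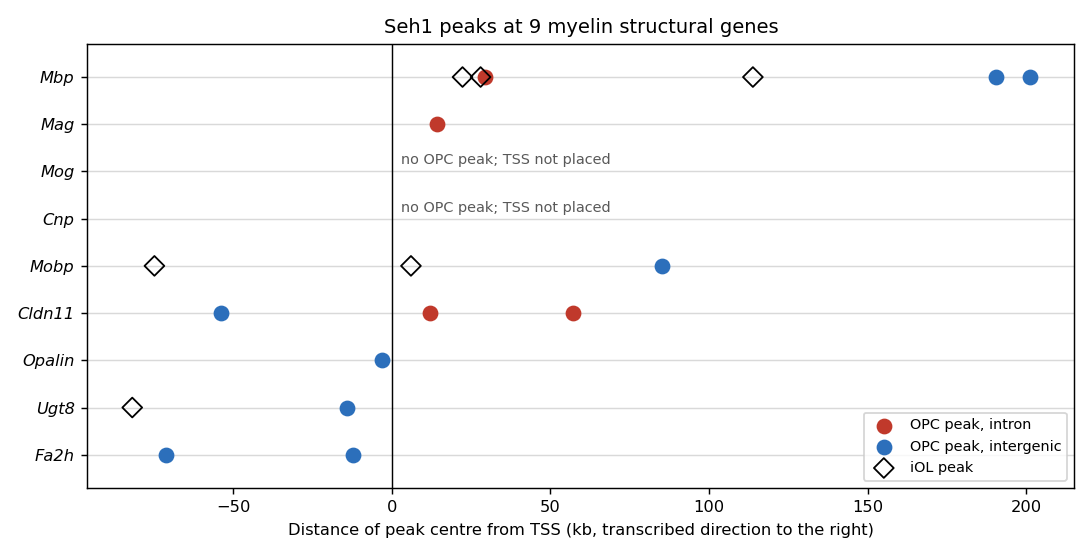
Positions of Seh1 peaks around the TSS (line at 0) of the 9 genes, in kb; filled circles are OPC peaks in introns or between genes, and open diamonds are iOL peaks within 100 kb of the TSS or between the TSS and an OPC peak of the gene. OPC peaks run from 71.2 kb upstream at Fa2h to 201 kb downstream at Mbp, and Mog and Cnp have none.

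None of the 12 peaks was in the annotated promoter class, which holds 4.02% of the table. None was in an exon (6.8% in the table), a UTR or a transcript end. Intergenic peaks made up 8 of the 12 (56.7% in the table) and intron peaks the other 4 (29.4% in the table). By the finer annotation 3 of the 12 peaks were in repeats (33.2% in the table) and 1 was in a CpG island (5.37% in the table). All of these were intergenic. Of the 12 peaks 7 lay downstream of their TSS and 5 upstream, while 57.6% of all annotated peaks lay downstream. All coordinates of peaks below are on rat build rn6, and scores are those of the authors' peak caller.

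Mbp, the basic protein that draws the cytoplasmic faces of myelin together, had an OPC peak in its last intron. This peak (chromosome 18, 79435483 to 79435687) lay 29.2 kb downstream of the TSS, in intron 4 of 4 of an Mbp transcript, with a score of 7.02. Its other peaks formed a pair between genes, at 191 kb (79596789 to 79596993, score 7.02) and 201 kb (79607311 to 79607515, score 7.66), with centres 10.5 kb apart. All these distances are from the start that the authors' annotation used for these peaks. RefSeq on assembly GRCr8 lists a further start for Mbp, from which distances were not measured. The nearest OPC peaks of other genes were 610 kb before the TSS, assigned to Myot, and 253 kb after it, assigned to Zfp516. In the gene order of assembly GRCr8, Zfp236 lies between Mbp and Zfp516 and is nearest gene to no peak of the table. Whether Zfp236 was part of the annotation behind the table was not tested, so assigning the pair at 191 and 201 kb to Mbp rests on that annotation. The count of 3 OPC peaks at Mbp and the results built on it share this limit.

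The iOL list had 3 peaks between the TSS and the last OPC peak of Mbp, where it had 1 at Mobp and 0 at the other 5 genes with an OPC peak. These stretches differed in length, from 3.1 kb at Opalin to 201 kb at Mbp. Within 100 kb of the TSS, Mbp and Mobp had 2 iOL peaks each and Ugt8 had 1. The 3 iOL peaks of Mbp lay 22.3 kb (79428549 to 79428757), 28.0 kb (79434245 to 79434453) and 114 kb (79520086 to 79520294) downstream of the TSS. The second of these iOL peaks ended 1029 bp before the OPC peak in intron 4 began. A gap of this size or less, overlaps included, was found at 2.93% of annotated OPC peaks. It was the smallest gap of the 12 peaks, so a share for single peaks makes it look rarer than it is. Only the iOL peak at 114 kb lay between OPC peaks of Mbp, while those at 22.3 and 28.0 kb lay between its TSS and its first OPC peak. The OPC and iOL peaks at 29.2 and 28.0 kb were thus close to each other without overlap. With 1 library per stage the gap between them has no error to be set against.

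Mag, an adhesion protein of the innermost myelin membrane facing the axon, had 1 OPC peak (chromosome 1, 89346558 to 89346762). It lay 14.1 kb downstream of the TSS in intron 11 of 11 of Mag, with a score of 7.66, the median of the table. Peaks of other genes stood close on both sides, at Usf2 16.0 kb upstream of the TSS of Mag and at Cd22 37.6 kb downstream. The OPC list had 5 peaks within 100 kb of the TSS of Mag. Over 4872 coding genes whose TSS could be placed, each nearest gene to at least 1 OPC peak, the median was 2. The iOL list had none in the window of Mag, and its nearest peak was 209 kb from the Mag peak.

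Cldn11, the claudin of the tight junctions between myelin layers, had peaks on both sides of its TSS on chromosome 2. One lay 12.0 kb downstream, in intron 2 of 2 of Cldn11 (115824778 to 115824982), and its score of 8.3 was the highest at the gene. Another lay 57.1 kb downstream (115779636 to 115779840, score 6.38), inside intron 7 of 7 of the neighbouring gene Slc7a14, although the TSS of Cldn11 was nearest. The third, 53.9 kb upstream (115890681 to 115890885, score 7.66), was in a CpG island between genes. No iOL peak lay between these 3 peaks, and the nearest were 144 to 210 kb away.

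All 4 intron peaks, at Mbp, Mag, Cldn11 and Slc7a14, lay in the last intron of the transcript they were annotated to. The same held for 235 of all 2674 annotated intron peaks, 8.79%. Among transcripts with more than 1 intron the share was 7.05%. This feature was noticed after the positions had been seen, and the 4 peaks come from 3 of the listed genes, so it is given as a description. The lengths of the introns were not measured here.

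Opalin, a transmembrane glycoprotein of the inner and paranodal loops of myelin, had the peak nearest to a TSS. It lay 3.1 kb upstream (chromosome 1, 260344675 to 260344879) in an L1_Rat4 copy, a LINE repeat, with a score of 7.02. The table holds 31 peaks in L1_Rat4 copies, with a median score that is also 7.02. A further column of the table, with a wider promoter class, counts as promoter the distances from -4951 to 994 bp. By this class the Opalin peak was the only promoter peak of the 12, while 12.2% of annotated OPC peaks fell in it. Opalin stood far from the iOL list, with the nearest iOL peak 597 kb away, the widest gap of the 12 peaks.

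The sequences before 2 of the TSS are shown to set the gene with the nearest peak, Opalin, beside a gene with none, Cnp. They are the 250 bases before the annotated start in RefSeq on assembly GRCr8, whose coordinates cannot be set against those of rn6. Capitals mark CAGCTG, an E-box, the kind of site that Olig2 and related factors bind, which reads the same on both strands.
Opalin, chr1:249858191-249858440, minus strand: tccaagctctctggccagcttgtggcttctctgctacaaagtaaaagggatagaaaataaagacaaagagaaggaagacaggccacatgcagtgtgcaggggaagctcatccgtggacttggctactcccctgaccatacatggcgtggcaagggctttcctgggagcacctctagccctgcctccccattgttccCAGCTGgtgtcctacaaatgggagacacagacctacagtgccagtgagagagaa
Cnp, chr10:86011254-86011503, plus strand: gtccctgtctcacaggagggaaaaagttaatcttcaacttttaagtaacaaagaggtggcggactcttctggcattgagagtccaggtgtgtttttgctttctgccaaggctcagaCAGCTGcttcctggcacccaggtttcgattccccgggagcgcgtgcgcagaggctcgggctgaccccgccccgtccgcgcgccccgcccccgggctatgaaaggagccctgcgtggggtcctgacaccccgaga
The match began 54 bases before the start of Opalin and 134 bases before that of Cnp. RefSeq promoters of 8 of the 9 genes were matched by symbol in 9 entries, Mbp having 2 and Mog none. Each entry spans 250 bases before and 50 after a start, and 3 of the 9 held CAGCTG: those of Opalin and Cnp and 1 of the 2 of Mbp. The share over all 33469 promoters of the table was 15.1%. Every OPC peak of these genes lay outside the windows, so the motif describes the sequence and not a peak.

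Mobp, a small basic protein of compact myelin, had the farthest nearest peak by assigned gene and one of the lowest scores. Its OPC peak lay between genes 85.2 kb downstream of the TSS (chromosome 8, 128909573 to 128909777) with a score of 6.38, and 81.4% of annotated peaks scored higher. Peaks of iOL were not assigned to genes, and by position alone one lay 6.02 kb downstream of the TSS (128830422 to 128830630), between the TSS and the OPC peak. Another iOL peak lay 74.8 kb upstream, and its nearest OPC peak was one assigned to Cx3cr1. An OPC peak at the start of the ribosomal gene Rpsa, 102 bp from its own TSS, lay 18.3 kb upstream of the TSS of Mobp. The window of 100 kb around Mobp held 4 OPC and 2 iOL peaks.

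The 2 lipid enzymes had peaks upstream of their TSS only. Ugt8 makes galactosylceramide, the main glycolipid of myelin, and Fa2h adds the hydroxyl group that many of its fatty acids carry. The Ugt8 peak lay 14.2 kb upstream (chromosome 2, 229732781 to 229732985) and its score of 8.94 was the highest of the 12. It lay in a copy of RatSatRep2, and the 279 peaks in copies of this repeat had a median score of 8.94 as well. A peak of iOL lay 81.8 kb upstream of the TSS of Ugt8 (229800404 to 229800612), 67.4 kb beyond the OPC peak. Fa2h had peaks 12.1 kb upstream (chromosome 19, 43608794 to 43608998) in an ORR1D2 copy, an LTR repeat, with a score of 6.38, and 71.2 kb upstream (43667889 to 43668093) between genes, with a score of 7.02. No iOL peak lay between the Fa2h peaks or within 100 kb of its TSS. The nearest was 168 kb from the farther peak.

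Mog and Cnp were nearest gene to no OPC peak. Mog is an immunoglobulin-like protein on the outer surface of myelin, and Cnp is an enzyme that keeps cytoplasmic channels open in it. Without a peak their TSS could not be placed on rn6, so they were bracketed by neighbouring genes in the order of GRCr8, which may differ from rn6. The flanking peaks of Mog were those of Or1o1, named Olr1718 in the table (chromosome 20, 1509286 to 1509490), and of RT1-M1-5 (2371653 to 2371857), and 25 and 14 coding genes lay between these genes and Mog. The stretch of 862 kb between the peaks held no OPC peak and 5 iOL peaks (1946317 to 2099223). Of all gaps between adjacent OPC peaks 91.5% were shorter, and the median gap was 131 kb. Stretches picked for holding a gene without a peak tend to be long, so this rank and that of Cnp below are descriptions only.

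The flanking peaks of Cnp were those of Klhl11 (chromosome 10, 88391744 to 88391948, score 7.66), annotated to the end of the neighbouring gene Acly, and of the acetyltransferase gene Kat2a (88618880 to 88619084, exon 2 of 18, score 8.94). They were 227 kb apart, a distance longer than 65.2% of all gaps. One iOL peak lay in this stretch (88608974 to 88609182), 9.70 kb from the Kat2a peak. A missing peak says only that none was called at this threshold, since the depth of the libraries is unknown.

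Scores of the 12 peaks ran from 6.38 to 8.94 with a median of 7.02. Over all 9084 peaks the median was 7.66, the lowest score 5.11 and the highest 197.3. Only 1.86% of all peaks scored lower than the member peaks at 6.38. Scores fall on steps of about 0.638, so the member peaks held 10 to 14 steps and the 2 medians are 1 step apart. At or above the median of the table stood 5 of the 12 peaks, at Mbp, Mag, Cldn11 and Ugt8, where 51.9% of all peaks did. The focus ratio, the caller's fraction for how tightly the reads of a peak sit around its centre, ran from 0.600 at the intron peak of Mbp to 0.923 at the Cldn11 peak in Slc7a14, with a median of 0.788 against 0.778 in the table.

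**Figure D2:**
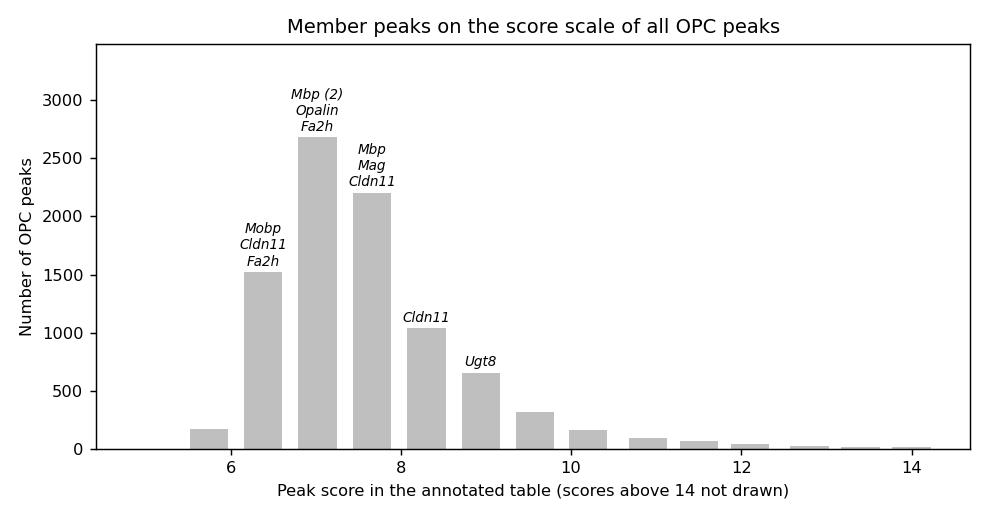
Number of OPC peaks (bars) at each score of the annotated table, with the genes of the 12 member peaks written above the score they had and the number of peaks in parentheses where a gene had more than 1 at that score. Labels stand at 6.38 to 8.94, with 3 at 6.38, 4 at 7.02, 3 at 7.66 and 1 each at 8.3 and 8.94.

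The overlap with iOL was counted from 1 bp. A count of 0 of 12 allows a share of up to 25% (3 counts of the total), so a difference was not detectable at this number of peaks. One of the 12, the intron peak of Mbp, had an iOL peak within 10 kb, where 10.3% of all OPC peaks did. The gap to the nearest iOL peak had a median of 156 kb over the 12 peaks and 88.3 kb over all annotated peaks. An iOL peak within 100 kb of the TSS was found at Mbp, Mobp and Ugt8, 3 of the 7 genes placed. Among placed coding genes, all of which had an OPC peak, the share was 54.2%. These counts give no change in Seh1 binding with T3, because each list has its own threshold and depth.

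**Figure D3:**
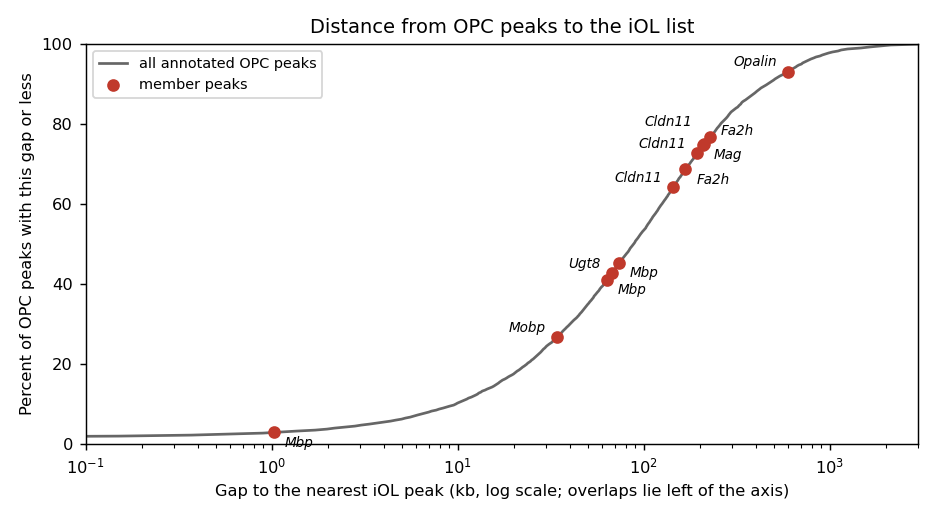
Gap in kb (log axis) between each OPC peak and the nearest iOL peak, with the cumulative percent of all annotated OPC peaks (line) and the 12 member peaks (points on the line, labelled by gene). The intron peak of Mbp stands at 1.03 kb, Mobp follows at 34.2 kb, and Opalin is farthest at 597 kb.

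Of the 3 genes with 2 or more OPC peaks only Mbp had an iOL peak between them, 1 of 3, where 29.5% of 1923 coding genes did. Among coding genes with exactly 3 OPC peaks the share was 40.4%. Counting iOL peaks between a TSS and an OPC peak too, Mbp had 3 and Mobp 1, which makes 2 of 7 genes against 21.0% of placed coding genes. By number of OPC peaks, number of iOL peaks between them and span, the genes most like Mbp (span 172 kb, 3 OPC peaks, 1 iOL peak) were Bmp2, Fam105a, Prkca, Ripk1 and Nav2, with spans of 154 to 177 kb, out of 107 genes with the same counts. Those most like Cldn11 (111 kb, 3 and 0) were Gins2, Cers3, Slc25a26, Mrpl14 and Ccnd1, with spans of 110 to 112 kb, out of 244.

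Other genes of the myelin programme were counted in the same way, from lists chosen with these data known. Of 30 other myelin and mature oligodendrocyte genes 9 had an OPC peak (30.0%), among them Gsn, an actin-severing protein, at its promoter (145 bp upstream), Nfasc, the paranodal adhesion protein, in an intron at 3.81 kb and Hapln2, a nodal matrix protein, in an exon at 3.97 kb. The peaks nearest to Evi2a and Omg lay in exons of Nf1, the gene that contains both. Of 20 regulators of myelin genes 11 had an OPC peak (55.0%), with Thrb, a receptor for T3, at 87 bp upstream and Nkx6-2 and Myrf next. The peak assigned to Myrf lay 6.91 kb upstream of its TSS, in an exon of Dagla. Of 26 lipid synthesis genes 14 had an OPC peak (53.8%), with Lss and Srebf2 at their promoters. Sptlc2, a subunit of the enzyme that begins sphingolipid synthesis, had one at 223 bp. None of the 21, 23 and 22 peaks of these 3 lists overlapped an iOL peak. The share over all annotated OPC peaks was 1.73%, so these counts of 0 are near the background. Promoter peaks were 1 of 21, 1 of 23 and 2 of 22 in these lists and 0 of 12 at the 9 structural genes. Over all annotated OPC peaks the share was 4.02%, and no difference between the lists was tested.

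**Figure D4:**
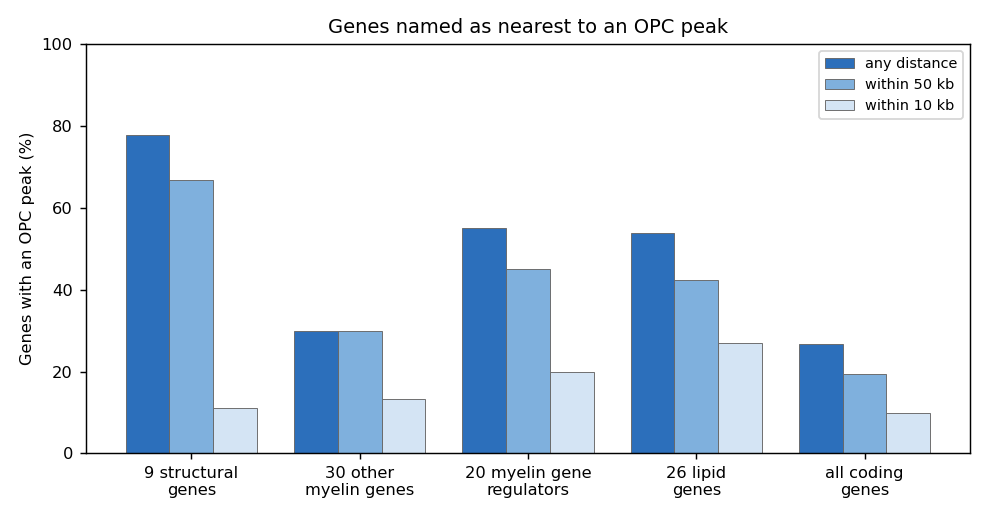
Percent of genes named as nearest to an OPC peak in 4 gene lists and among 20978 coding genes, at any distance and within 50 or 10 kb of the TSS (bars from 0). The 9 structural genes stand at 77.8%, 66.7% and 11.1%, and all coding genes at 26.7%, 19.5% and 9.84%.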

How the data were processed

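Peaks were called by the authors, 1 list per Seh1 library. Bowtie2 and HOMER, without versions, and the builds rn6 and hg18, without roles, are named per the submitters' processing notes. The annotated table is recorded under iOL, but per the file headers HOMER's annotatePeaks.pl wrote it on rn6, and the input named there pairs Seh1 of OPC with IgG of iOL. Its 9084 intervals are all in the OPC list and 0 are in the iOL list, so it was used for OPC, whose background was then apparently taken from iOL. The remaining 33 of 9117 OPC peaks have no annotation. The deposited peak score has no unit in the header, and the focus ratio is a deposited fraction from 0 to 1. The table's class columns include a pair with the same name. The second of that pair did not follow the distances and was not used, while a separate column with a wider promoter class was used for Opalin. The lists of 9117 peaks of 205 bp and 6704 peaks of 209 bp hold positions only. They carry no read totals, so depth is unknown.

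Members were matched by symbol, and other genes by gene ID in the RefSeq table of GRCr8. A TSS was placed from the distances of 2 or more peaks of a gene (Mbp, Cldn11 and Fa2h), or from 1 distance and the strand in the RefSeq promoter table (Mag, Mobp, Opalin and Ugt8). Where both could be compared, the strands were the same for 1415 of 1506 genes (94.0%). Named genes were all members, up to 6 genes per further list with the nearest peaks, flanking genes with a peak, and up to 5 genes like those with most peaks. The members and lists were chosen with earlier results of these data known. No test was run, since each stage has 1 library. Counting functions were tested on simulated data. Computation used Python 3.11.15 and pandas 2.3.3.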

Additional observations from a re-analysis of the deposited data

How the results depend on the processing

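Of the 9 genes, 7 had an OPC peak at any distance and also within 100 kb or when matched by gene ID, 6 within 50 kb and 5 without peaks in annotated repeats. Within 10 kb 1 gene was left, 4 with scores at or above the median of the table and 2 with scores of 8.3 or more. Their 12 peaks became 10 within 100 kb, 6 within 50 kb, 1 within 10 kb, 5 at or above the median score, 2 at 8.3 or more and 9 without repeats. Overlap with iOL peaks stayed at 0 when 105 bp had to overlap or a gap of 1 kb was allowed, and became 1 with a gap of 10 kb. The 1 iOL peak between OPC peaks of a gene became 4 when the TSS also bounded the span and 0 when only OPC peaks within 100 kb of the TSS counted. It stayed at 1 when only the centre of the iOL peak had to lie inside. Each of these changes follows from fewer peaks or a wider span being counted, or from nearness being counted in place of overlap. The median score of 7.02 was the same over the nearest peaks and without Mbp or without Cldn11. No paired analysis was possible because each stage had 1 library. The unknown depth limits what a missing peak at Mog or Cnp shows.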
